A study of Mus musculus with 2 samples.

Results

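Hox genes encode homeodomain transcription factors that stand in 4 genomic clusters. All 39 genes of the HoxA, HoxB, HoxC and HoxD clusters were found among the 32285 genes of the count matrices, by a symbol made of Hox, a cluster letter and a paralogue number. HoxA held 11 of them, HoxB 10, HoxC 9 and HoxD 9. By paralogue position, 8 lay at positions 1 to 3, 15 at positions 4 to 8, 7 at positions 9 and 10, and 9 at positions 11 to 13. They were followed in mouse embryonic stem (ES) cell cultures of the inbred strain C3H/HeSn-Paf/J by droplet single-cell RNA sequencing. Each culture mixed 9 lines, 3 each with XX, XO and XY sex chromosomes, on gelatin with irradiated mouse embryonic fibroblast feeders in serum and leukaemia inhibitory factor. Time 1 was an early passage and time 2 the same mixture after 10 further passages. There was 1 library at each time, so no test between time points was possible. None was run between classes, and the lines were not told apart. The labels do not say from which animals, lot or body region the feeders came. Feeder lot, library and passage therefore cannot be told apart in any comparison of the time points. The 2 libraries shared 2155 barcodes, 192 of them among the barcodes kept as cells.

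Along each cluster the genes at low paralogue numbers are active early and in anterior tissue, and those at high numbers later and farther back or farther out in the limbs, an order called collinearity. Polycomb proteins keep the clusters silent in pluripotent cells, and CDX factors and retinoic acid help to open them as cells leave that state. Connective tissue cells keep the Hox combination of their body region through culture, so that fibroblasts carry a positional record.

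The clusters were placed with GENCODE M21 on GRCm38. HoxA lies on the minus strand of chromosome 6. On the plus strand lie HoxB, which spans chromosome 11 from 96194316 to 96368256, HoxC, which spans chromosome 15 from 102921103 to 103036852, and HoxD, which spans chromosome 2 from 74668310 to 74765142. Gene models of 11 members overlap another counted gene on the same strand (Hoxa3 to Hoxa6, Hoxc5, Hoxc6, Hoxc8 to Hoxc10, Hoxd3 and Hoxd4), 14 overlap one on the opposite strand and 20 overlap none. How counting divided reads between such genes is not given in the sources used here, so the levels of overlapping members are uncertain.

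The 250 bases before the start of 3 members are printed because the comparisons within the feeders name them. They are Hoxb8, a trunk gene of HoxB, and the distal limb genes Hoxd11 and Hoxd13. The windows come from the RefSeq promoter table (GRCm38.p6), in which 22 of the 39 members had 24 windows. All 4 are from the plus strand, and capitals mark TTTATNG, letters close to the core that CDX proteins bind, the only motif searched, on both strands.
Hoxb8, chr11:96281655-96281904: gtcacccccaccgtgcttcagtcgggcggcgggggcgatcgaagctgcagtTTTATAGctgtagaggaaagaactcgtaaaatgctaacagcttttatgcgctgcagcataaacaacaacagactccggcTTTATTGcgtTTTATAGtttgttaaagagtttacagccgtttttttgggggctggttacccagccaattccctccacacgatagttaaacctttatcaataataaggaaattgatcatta
Hoxd11, first start, chr2:74679308-74679557: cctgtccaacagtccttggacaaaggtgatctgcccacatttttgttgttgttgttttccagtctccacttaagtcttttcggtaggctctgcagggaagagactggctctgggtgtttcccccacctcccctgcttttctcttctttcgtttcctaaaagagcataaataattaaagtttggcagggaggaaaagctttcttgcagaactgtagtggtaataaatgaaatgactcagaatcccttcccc
Hoxd11, second start, chr2:74682073-74682322: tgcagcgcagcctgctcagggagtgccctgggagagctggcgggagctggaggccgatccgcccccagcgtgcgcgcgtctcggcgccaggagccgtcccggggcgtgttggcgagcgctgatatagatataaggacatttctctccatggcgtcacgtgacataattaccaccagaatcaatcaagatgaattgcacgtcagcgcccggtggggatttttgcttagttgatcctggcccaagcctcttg
Hoxd13, chr2:74667975-74668224: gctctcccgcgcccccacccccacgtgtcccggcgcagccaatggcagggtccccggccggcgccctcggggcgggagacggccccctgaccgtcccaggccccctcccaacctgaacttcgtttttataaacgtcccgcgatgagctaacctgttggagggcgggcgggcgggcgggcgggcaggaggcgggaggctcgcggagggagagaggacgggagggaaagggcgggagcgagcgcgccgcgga
The Hoxb8 window held 3 matches and 12 CpG pairs. The Hoxd11 windows held 0 and 0 matches with 2 and 20 CpG pairs, and the Hoxd13 window 0 with 31. Over the members, 2 of 24 windows held a match (8.33%), against 3223 of 32841 windows of all genes (9.81%). The median window of a member had 12.5 CpG pairs and that of any gene 6.

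Barcodes kept as cells numbered 23785 and 26949, with median totals of 44510 and 51460 UMIs (unique molecular identifiers, 1 per captured transcript whatever its length). Cells were clustered without Hox genes, and clusters were named from marker lists, by at least 2 markers among their 10 leading genes. The two-cell-like cluster held 1 such marker and was named after it was seen, with Tcstv1 among its leading genes. The classes, with their cells at time 1 and time 2, were fibroblast-like (456 and 752), mesendoderm-like (1450 and 620), endoderm-like (51 and 131), endothelial or blood-like (77 and 198), two-cell-like (149 and 64) and primed epiblast-like (6546 and 316). A further 4 clusters, called by their genes Jam2, Rhox9, Nanos3 and 1700097N02Rik, were pooled as pluripotent (8590 and 20838). A Car2-led cluster (71 and 3997) with T and Etv2 among its leading genes was left unnamed. So was a Notch2-led cluster (6270 and 31), which was left out of the pool although its summed pluripotent markers, at 2132 CPM, were not below those of the Rhox9-led cells, at 2054 CPM. Levels are UMIs of a gene per 1000000 UMIs of the class (CPM), and pairs of values are for time 1 and then time 2. Brackets hold exact 95% intervals, which cover counting error only and not differences between cultures.

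Hox RNA stood at its highest level in the fibroblast-like cells, which held 6483 of 14554 and 10152 of 22950 Hox UMIs of all kept cells. Their summed Hox level was 239.9 CPM (234 to 246) in the first library and 173 CPM (170.0 to 177) in the second. The pluripotent clusters had 5.12 CPM (4.92 to 5.33) and 5.503 CPM (5.37 to 5.63). With every cell thinned to 10000 UMIs, a Hox UMI was found in 66.4% and 62.8% of fibroblast-like cells and in 5.11% and 5.14% of pluripotent cells. With all UMIs these shares were 88.4% and 89.5% against 19.9% and 22.5%, at median depths of 44377 and 65496 against 50585 and 51186 UMIs. In fibroblast-like cells 35 and 37 of the 39 members reached a UMI in 1% of cells, against 51.7% and 52.2% of all genes. In pluripotent cells 4 and 7 of the 39 members reached a UMI in 1% of cells, against 48.6% and 47.8% of all genes.

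The fibroblast-like cells carried the markers that the feeder label calls for. All 12 fibroblast markers were detected, with summed levels of 3124 and 2068 CPM, and Col1a1 and Col1a2 were among the 10 leading genes. The class also held 926 and 1287 CPM of the 12 pluripotent markers, against 2391 and 2638 CPM in the pluripotent clusters. Its median cell had 922 and 920.5 CPM of them. For this reason values are also given for the 179 and 284 fibroblast-like cells under 500 CPM of pluripotent markers, a limit chosen after the data were seen. It lies in a continuous range, with 45 and 68 cells of the class within 20% of it. The Hox level of the cells under the limit was 335 and 297 CPM, and that of the other fibroblast-like cells 167 and 132 CPM.

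**Figure D1:**
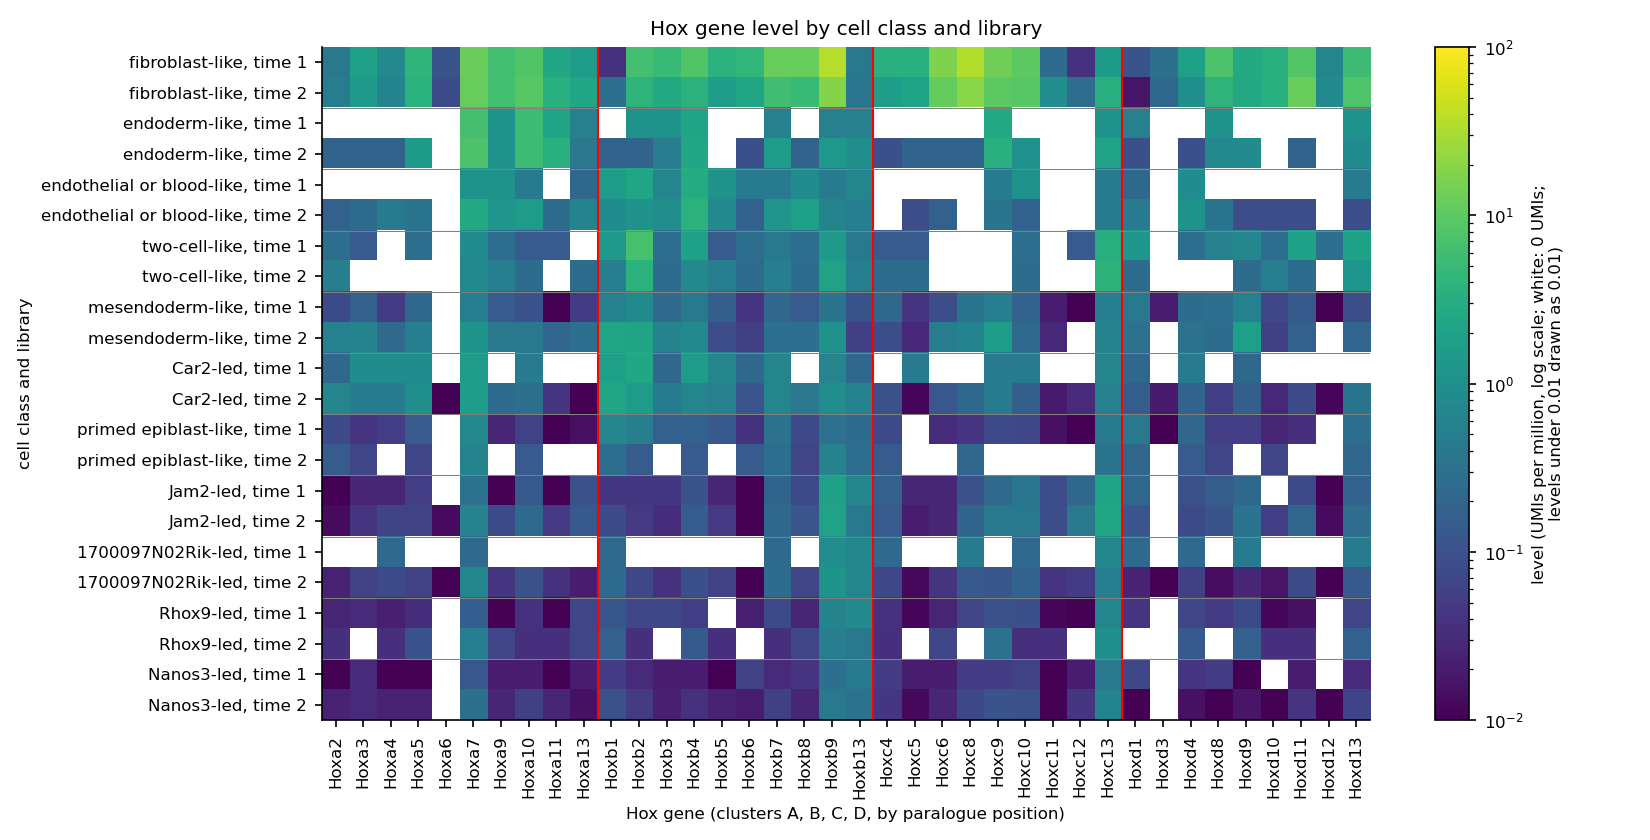
Level of the Hox genes named on the axis (columns, by cluster and paralogue position) in each class and library (rows), in UMIs per 1000000 on a logarithmic colour scale with white for 0 UMIs. The fibroblast-like rows are bright over most columns, and the pluripotent rows are faint.

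Among single members, the trunk genes Hoxc8 and Hoxb9 were the most abundant in fibroblast-like cells. Hoxc8 stood at 35.0 CPM (32.9 to 37.4) and 19.5 CPM (18.4 to 20.6), with a UMI in 45.8% and 29.8% of cells. Hoxb9 stood at 35.5 CPM (33.2 to 37.8) and 18.3 CPM (17.2 to 19.4). Both were higher at time 1, with intervals that did not overlap. Hoxc6 had 16.95 and 11.1 CPM, Hoxa7 12.1 and 11.7, Hoxc9 13.4 and 9.65 and Hoxc10 9.84 and 9.07. The HoxB trunk genes Hoxb7 and Hoxb8 had 11.7 and 6.03 CPM and 11.8 and 4.97 CPM. Hoxa10 had 8.14 and 9.03 CPM and the distal limb gene Hoxd11 8.51 and 11.8 CPM. These 10 members had the highest means over both libraries. At the low end, Hoxa6, Hoxb1, Hoxc12, Hoxd1 and Hoxd3 all stayed below the 0.376 CPM of Hoxb13 at time 2. Of these, Hoxd1 had 0.111 and 0.0171 CPM and Hoxa6 0.111 and 0.0854 CPM. The 29 members outside the first 10 ranged from 0.0370 to 8.14 CPM at time 1 and from 0.0171 to 7.84 CPM at time 2. Every one of the 39 had at least 1 UMI in each library.

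By genomic cluster, HoxB and HoxC together gave most of the fibroblast-like Hox UMIs. HoxA held 16.2% and 23.0%, HoxB 36.3% and 25.6%, HoxC 34.9% and 33.2% and HoxD 12.6% and 18.3%. By paralogue position, positions 1 to 3 held 6.48% and 5.82%, positions 4 to 8 52.0% and 42.7%, positions 9 and 10 32.9% and 33.5% and positions 11 to 13 8.70% (8.02 to 9.41) and 17.9% (17.2 to 18.7). The anterior end of the clusters was thus thin in both libraries, and the share of the distal end was larger at time 2. In cells under 500 CPM of pluripotent markers the distal share was 10.3% and 19.02%.

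**Figure D2:**
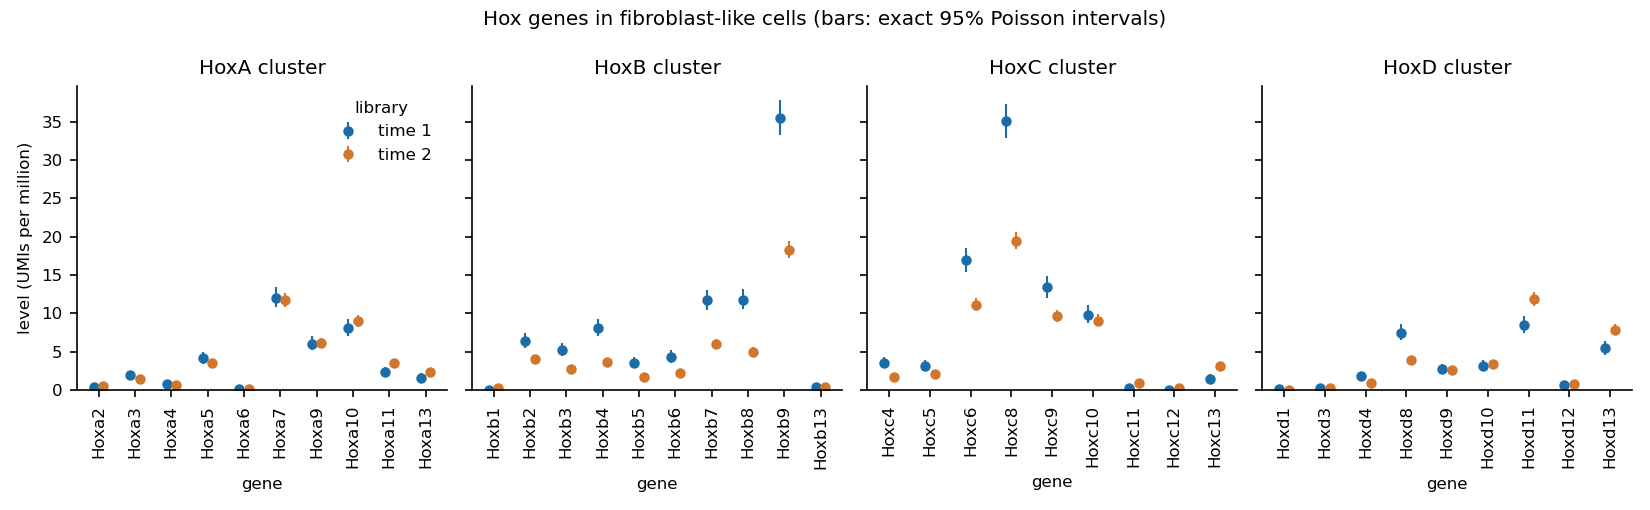
Level of the Hox genes named on the axes in fibroblast-like cells in UMIs per 1000000, in 1 panel per cluster and by paralogue position, for each library, with exact 95% Poisson intervals. Hoxb9 and Hoxc8 are the highest points in both libraries, the points from Hoxb2 to Hoxb9 lie lower at time 2, and Hoxd11 and Hoxd13 lie higher.

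Hoxb9 was 41.01-fold (36.5 to 46.1) and 18.2-fold (16.7 to 19.7) higher in fibroblast-like than in pluripotent cells of the same library. Hoxc6 was 681-fold (386 to 1328) and 316-fold (233 to 439) higher and Hoxc8 469.6-fold (337 to 675) and 165-fold (139 to 197), both compared only through their high fibroblast-like level. Most members were too low in the pluripotent clusters to be seen as lower in a class of this size. Fold values of such members could only come out higher, and they describe levels only. Members were counted where the pluripotent level alone would give at least 10 UMIs in the smaller class, with 30 UMIs in both classes together. In fibroblast-like cells 1 of 4 were at least 2-fold higher at time 1, where 16.8% of all genes were, and 5 of 8 at time 2, where 17.5% were. None was 2-fold lower, where 20.9% and 12.3% of all genes were. Another 27 and 28 members reached 10 UMIs only through their fibroblast-like level and are not counted. Those short of 2-fold included Hoxb13 in both libraries, Hoxc13 at time 1 and Hoxb1 at time 2. Hoxb13 had 0.407 and 0.376 CPM in fibroblast-like and 0.684 and 0.512 CPM in pluripotent cells.

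Between the time points, Hoxb2 to Hoxb9 had lower levels at time 2 in fibroblast-like cells, and distal members of HoxA, HoxC and HoxD higher ones. Most of these differences were short of 2-fold. The HoxC and HoxD members at positions 4 to 8 were lower too, with Hoxd8 at 7.51 and 3.96 CPM and Hoxd4 at 1.81 and 0.990 CPM. The summed fibroblast markers of the class, given above, were also lower at time 2. The part of fibroblast content in these differences was not tested. Of 34 members with at least 30 UMIs over both libraries, 2 were at least 2-fold higher (3.08% of all genes) and 3 at least 2-fold lower (5.42% of all genes). The median log2 ratio was -0.29 over the members and -0.08 over all genes. Hoxb4 had 8.14 and 3.71 CPM, Hoxb5 3.59 and 1.69, Hoxd13 5.44 and 7.84, Hoxa11 2.41 and 3.52, Hoxc11 0.259 and 0.905 and Hoxc13 1.52 and 3.18. The 3 lower ones were Hoxb8 at 0.421 (0.358 to 0.495) times its time 1 level, Hoxb4 at 0.455 (0.375 to 0.551) and Hoxb5 at 0.471 (0.352 to 0.630). Just short of 2-fold lower were Hoxc4 at 0.5002 and Hoxb7 at 0.515 (0.442 to 0.602). The 2 higher ones were the distal HoxC genes Hoxc11, at 3.49 (1.58 to 9.11) from 7 and 53 UMIs, and Hoxc13, at 2.09 (1.49 to 3.01). Hoxc11 was compared only through its time 2 level. Where the level of the lower library alone would give 30 UMIs over both, 1 of 33 members was higher (2.01% of all genes) and 3 of 34 lower (4.21%). At time 2 a single cell held 16 of 53 Hoxc11 UMIs, and 1 cell 20 of 186 Hoxc13 UMIs. The next were Hoxa11 at 1.46 (1.10 to 1.96), Hoxd13 at 1.44 (1.19 to 1.75), Hoxa13 at 1.42 (1.00 to 2.04) and Hoxd11 at 1.39 (1.197 to 1.62). The counts moved with the processing: 0 were higher and 1 lower with a pseudocount of 1 CPM, 4 were higher without the filter on low counts, and 1 was lower with Hox genes allowed in the clustering. Such settings change the count of any gene. The shares of all genes under them are not given here, so these counts show only that the first ones moved.

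Fibroblast-like cells with few pluripotent markers also had lower levels of Hoxb2 to Hoxb9 at time 2 and higher ones of distal HoxA, HoxC and HoxD members. Few of these differences reached 2-fold, and the members that did were not all those of the whole class. Counted by the level of the lower library, 0 of 30 members were at least 2-fold higher (1.25% of all genes) and 3 of 31 lower (3.03%), namely Hoxb4 at 0.463 (0.344 to 0.618), Hoxb8 at 0.473 (0.368 to 0.606) and Hoxb6 at 0.478 (0.307 to 0.733). On the other side, just short of 2-fold, were Hoxa13 at 1.99 (1.25 to 3.28), Hoxc13 at 1.97 (1.27 to 3.12), Hoxd13 at 1.84 (1.44 to 2.37) and Hoxa11 at 1.75 (1.21 to 2.58). The fibroblast markers of these cells summed to 4479 and 3641 CPM. Hoxc9, in the middle of its cluster, stood at 17.9 CPM (15.6 to 20.5) and 16.5 CPM (14.4 to 18.7), with overlapping intervals.

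**Figure D3:**
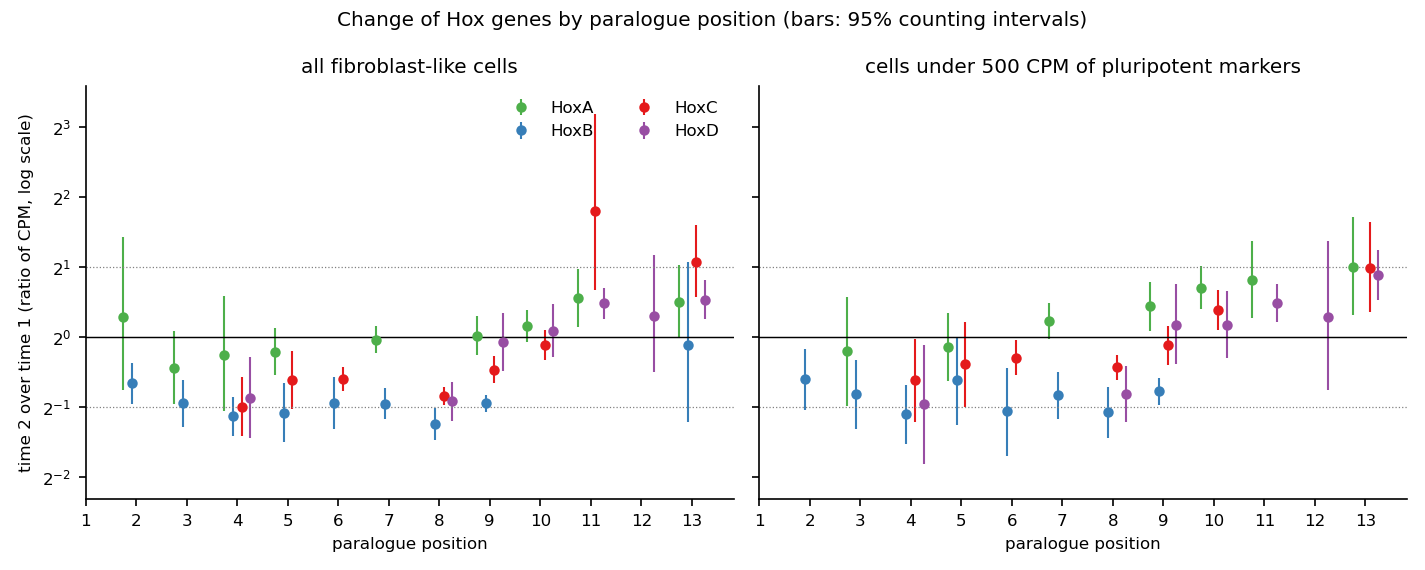
Ratio of the level at time 2 to that at time 1 (logarithmic axis) for members with at least 30 UMIs, by paralogue position and coloured by cluster, in all fibroblast-like cells (left) and in those under 500 CPM of pluripotent markers (right), with 95% counting intervals. HoxB points at positions 2 to 9 lie below 1 in both panels, and points at positions 11 to 13 lie above 1 except that of Hoxb13.

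Single cells were then described by the highest paralogue position at which they held a UMI. It lay at positions 11 to 13 in 28.3% (24.2 to 32.7) of fibroblast-like cells at time 1 and in 49.6% (46.0 to 53.2) at time 2. Counting only members with at least 2 UMIs in the cell gave 13.4% and 29.4%, and thinning to 10000 UMIs gave 12.7% and 22.1%. Cells under 500 CPM of pluripotent markers gave 35.8% and 53.9%. Time 2 was the higher in each of these 4 counts. The median number of different members in a fibroblast-like cell had no such order, with 4 and 5 for all UMIs, 1 and 1 after thinning and 7 and 5 in cells under 500 CPM of pluripotent markers.

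**Figure D4:**
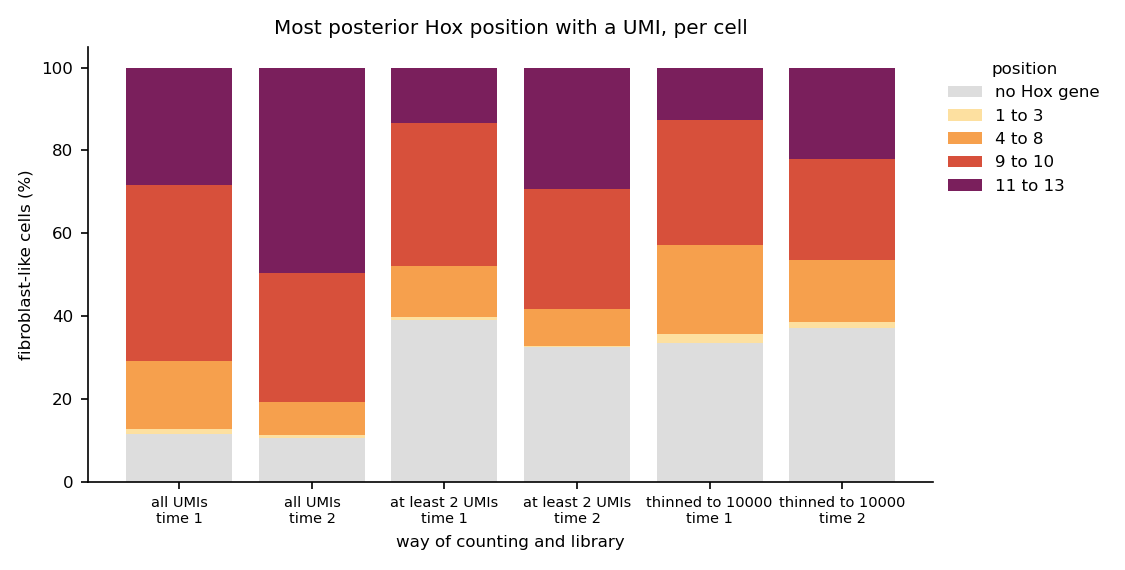
Share of fibroblast-like cells in percent by the most posterior paralogue position with a UMI, for each library and 3 ways of counting. The part for positions 11 to 13 is larger at time 2 in each pair of bars, with 28.3% against 49.6% for all UMIs.

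Hoxd11 and Hoxb8 were rarely held by the same fibroblast-like cell. Among the cells under 500 CPM of pluripotent markers at time 1, 37 held Hoxd11 and 58 held Hoxb8, and 0 held both, where independent shares would give 11.99. At time 2, 87 held Hoxd11 and 46 held Hoxb8, and again 0 held both, against 14.1. In the whole class 1 and 7 cells held both, against 15.5 and 32.4. The 344 pairs compared there had ratios of joint to independent detection from 0 to 5.4 and from 0.0475 to 5.43. Hoxd11 and Hoxb8 were thus not the pair most rarely held together in that class. Members of one cluster were more often held together: in cells with few pluripotent markers, 26 and 66 held both Hoxd13 and Hoxd11, against 5.58 and 25.1. In these cells 250 pairs were compared, that of Hoxd11 and Hoxb8 among them. The 250 ratios of joint to independent detection ran from 0 to 4.66 and from 0 to 4.58. The median ratio was 1.73 and 2.42 over pairs within a cluster. Over pairs from different clusters it was 1.17 and 1.07. The spread of depth between cells also enters these ratios.

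The same cells were split, after the data were seen, by distal Hox UMIs. Those with at least 2 at positions 11 to 13 (50 and 118 cells) were set against those with none (115 and 131 cells). Depth differed, with medians of 70259.5 against 42829 UMIs at time 1 and 53232 against 34599 at time 2. Hoxa10 had 25.1 against 2.41 CPM at time 1 and 31.3 against 6.12 CPM at time 2. Hoxd10 had 14 against 1.204 CPM at time 1 and 12.2 against 0.992 CPM at time 2. Members were counted where the level of the lower group alone would give 30 UMIs over both, which Hoxd10 did not reach in either library nor Hoxa10 at time 1. At positions 9 and 10, 1 of 5 at time 1 and 2 of 6 at time 2 were at least 2-fold higher in cells with distal genes (3.13% and 3.35% of all genes), and 2 of 7 and 2 of 7 were lower (0.984% and 2.09%). The lower ones were Hoxb9, with 17.9 against 58.1 CPM at time 1 and 14.4 against 40.4 CPM at time 2, and Hoxc9, with 9.33 against 22.0 CPM at time 1 and 9.11 against 23.3 CPM at time 2. Hoxa9, higher in both libraries, had 18.4 against 3.31 CPM at time 1 and 19.1 against 5.46 CPM at time 2. At positions 4 to 8, 0 of 13 and 0 of 12 were higher and 5 of 9 and 5 of 6 lower. Hoxb7 had 4.18 against 22.4 CPM at time 1 and 2.205 against 16.4 CPM at time 2, and Hoxc8 21.6 against 61.8 CPM at time 1 and 16.6 against 59.4 CPM at time 2. Hoxa7, a trunk gene of HoxA, differed little, with 20.4 against 17.5 CPM at time 1 and 19.99 against 23.5 CPM at time 2.

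Of the list of limb genes outside the clusters, counted in the same way, 1 of 4 at time 1 and 2 of 4 at time 2 were at least 2-fold higher in the cells with distal genes (3.13% and 3.35% of all genes). In turn 0 of 6 and 0 of 8 were lower (0.984% and 2.09%). Msx1, a homeobox gene of distal limb mesenchyme, had 6.63 against 0.150 CPM at time 1 and 11.8 against 1.16 CPM at time 2, too low in the cells without distal genes to be counted. Hand2, which patterns the posterior limb bud, had 10.8 against 4.21 CPM at time 1 and 13.8 against 5.46 CPM at time 2. Thy1, a fibroblast surface protein, was lower in cells with distal Hox genes, with 226 against 535 CPM at time 1 and 176 against 395 CPM at time 2. The collagen gene Col1a1 had 1444 against 1209 CPM at time 1 and 1154 against 727 CPM at time 2.

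The mesendoderm-like class held less Hox RNA, much of it from the anterior end of the clusters. Its summed level was 9.58 CPM (8.98 to 10.2) in the first library and 20.7 CPM (19.2 to 22.3) in the second, and positions 1 to 3 gave 38.4% and 39.3% of its Hox UMIs. The share of these positions was as large in primed epiblast-like cells at time 1 and in Car2-led cells at time 2, so it did not set the mesendoderm-like class apart. A thinned cell held a Hox UMI in 7.38% and 11.5% of cases (27.4% and 30.8% with all UMIs), and 15 and 23 of the 39 members reached a UMI in 1% of cells, against 49.8% and 47.9% of all genes. Finer clustering of all cells gave a Lhx1-led cluster (240 and 398 cells, 234 and 396 of them from the class) with 1589 and 1010.1 CPM of mesendoderm markers. It also gave a Ltb-led cluster (1376 and 207 cells, 1210 and 195 from the class) with 76.0 and 68.3 CPM of them. The leading genes of the Ltb-led cluster held 2 trophoblast markers, the keratins Krt8 and Krt18, and no mesendoderm marker, so most of the class at time 1 was not marked as mesendoderm at this resolution. In the Lhx1-led cells the Hox level was 19.7 CPM (17.2 to 22.5) and 19.3 CPM (17.5 to 21.3), but 1 cell held 108 of 225 Hox UMIs at time 1 and 1 cell 79 of 404 at time 2. Without these cells the levels were 10.3 and 15.6 CPM, and those of the whole class 8.50 and 18.5 CPM. In the Ltb-led cells it was 8.84 and 19.3 CPM, beside 31.9 and 73.4 CPM of fibroblast markers, whose part in the difference was not tested. In the whole class, counted by the level of the lower library, 7 of 14 members were at least 2-fold higher at time 2 (2.74% of all genes) and 0 of 25 lower (5.05%), beside this different mix of cells. With Hox genes allowed in the clustering the order of the libraries turned. With doublets kept the levels of the class were 15.5 and 21.1 CPM. Barcodes of 500 to 2000 UMIs, too small to be kept as cells and read as free RNA, had Hox levels of 8.31 and 17.1 CPM, close to those of the class and also higher at time 2. Whether these barcodes held free RNA alone was not tested. Per 100 UMIs of fibroblast markers they held 19.9 and 16.6 Hox UMIs and the class 29.97 and 50.2. The part of free RNA in the class was not tested.

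Anterior members, Hoxb2 and Hoxb1, were among those that led the class. Hoxb2 had 0.823 and 2.17 CPM, and Hoxb1, an early gene of the primitive streak, 0.592 and 2.23 CPM. Hoxd9 had 0.582 and 1.82 CPM. Hoxc9 had 0.512 and 1.73 CPM, with 24 of its 51 UMIs at time 1 in a single cell. In the Lhx1-led cells Hoxb1 had 1.93 and 3.16 CPM, Hoxb2 2.45 and 1.96 and Hoxd1 2.19 and 0.526. Against the pluripotent clusters, counted as above, 3 of 8 members were at least 2-fold higher in the class at time 1 (12.7% of all genes) and 2 of 5 at time 2 (15.0%). The lower ones numbered 2 and 1 (14.6% and 14% of all genes). With the Notch2-led cells added to the pool, 7 of 15 were higher at time 1 (11.5% of all genes) and 2 lower (13.3%). Among those counted, Hoxa7 was 2.90-fold (2.03 to 4.11) and 2.17-fold (1.54 to 2.98) higher, and Hoxb13 stood at 0.161 and 0.113 times. Hoxb2, too low in pluripotent cells to be counted, was 14.7-fold (9.41 to 23.6) and 35.1-fold (25.2 to 48.9) higher.

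Much of that RNA sat in few cells. At time 1, 36 mesendoderm-like cells (2.48%) had 5 or more Hox UMIs and held 47.3% of the class's Hox UMIs. At time 2, 36 (5.81%) held 64.4%. Cdx2, a direct activator of trunk Hox genes, stood in those cells at 24.3 CPM (19.6 to 29.9) against 1.02 CPM in cells with no Hox UMI at time 1, and at 89.2 CPM (76.9 to 103) against 2.70 CPM at time 2. Meis2, a cofactor that binds DNA with HOX proteins, had 31.8 CPM against 3.09 CPM and 47.5 CPM against 4.59 CPM. The primitive streak factor T was closer, with 37.96 CPM against 35.1 CPM and 183 CPM against 151 CPM. Fibroblast markers were higher too, with 74.8 against 28.2 CPM and 74.1 against 24.1 CPM, and their part in the Hox count was not tested. Median depths were 72596 against 52226 UMIs and 49872 against 48867.

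In the Car2-led cluster Cdx2 and Meis2 were also higher in Hox-rich cells. Its Hox level was 17.9 CPM (14.2 to 22.2) in 71 cells at time 1 and 16.99 CPM (16.5 to 17.5) in 3997 cells at time 2. A thinned cell held a Hox UMI in 23.9% and 11.5% of cases, and at time 2 21 of the 39 members reached a UMI in 1% of cells, against 48.6% of all genes. At time 2 the level was close to the 17.1 CPM of free RNA. Per 100 UMIs of fibroblast markers the cluster then held 138 Hox UMIs and free RNA 16.6, and the part of free RNA was not tested. Hoxb1 had 1.79 and 2.36 CPM, Hoxb2 2.46 and 1.55, Hoxa7 1.56 and 1.68 and Hoxb4 1.56 and 0.660. At time 2, 17 of 25 members were at least 2-fold higher than in the pluripotent clusters (9.61% of all genes) and 1 lower (11.3%). Hoxb1 was 13.1-fold (11.2 to 15.3) and Hoxb2 25.2-fold (19.7 to 32.6) higher at time 2, and Hoxc13 stood at 0.679 (0.566 to 0.811) times. At time 2, 211 cells (5.28%) with 5 or more Hox UMIs held 51.5% of the Hox UMIs. Cdx2 had 13.4 CPM (11.6 to 15.4) against 0.917 CPM in cells without, Meis2 52.6 CPM against 5.501 CPM and T 51.9 CPM against 17.6 CPM. Fibroblast markers stood at 15.3 against 12 CPM, and median depths at 57438 against 50603 UMIs.

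**Figure D5:**
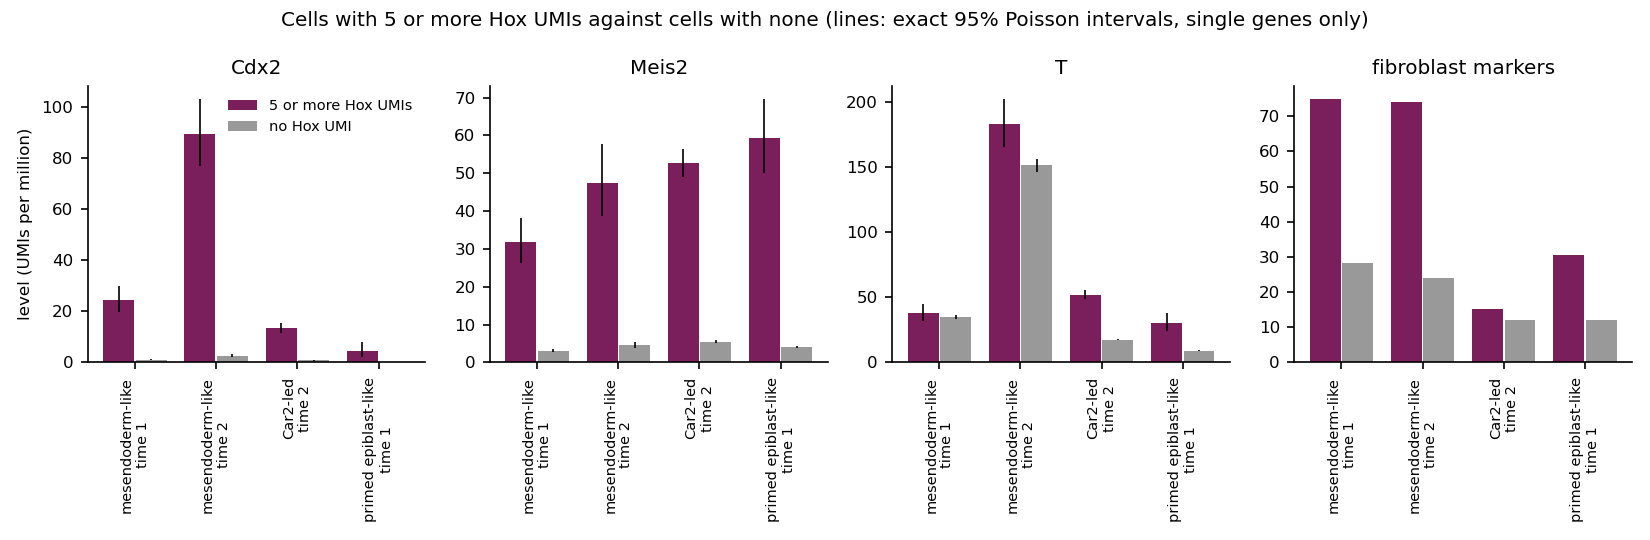
Level in UMIs per 1000000 of Cdx2, Meis2, T and the 12 summed fibroblast markers in cells with 5 or more Hox UMIs and in cells with none, for 4 combinations of class and library. Cdx2 and Meis2 are higher in the Hox-rich cells in all 4, with Cdx2 at 89.2 CPM against 2.70 CPM in mesendoderm-like cells at time 2.

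Primed epiblast-like cells, a state that follows the naive one, held little Hox RNA. The level was 6.57 CPM (6.30 to 6.85) and 4.58 CPM (3.54 to 5.82), with a Hox UMI in 5.42% and 4.75% of thinned cells, and 11 and 6 of the 39 members reached a UMI in 1% of cells, against 48.0% and 46.5% of all genes. Hoxa7 had 0.776 and 0.624 CPM, Hoxb1 0.720 and 0.277, Hoxb9 0.308 and 0.624 and Hoxc13 0.465 and 0.347. Against the pluripotent clusters at time 1, 10 of 23 members were at least 2-fold higher (9.26% of all genes) and 5 lower (12.5%). With the Notch2-led cells added to the pool these were 10 of 32 (6.66%) and 10 (11.8%). Hoxb2, at 9.21-fold (6.11 to 14.4), was among the higher and Hoxb9, at 0.356 (0.285 to 0.443) times, among the lower. At time 2, 0 of 2 were higher (7.29%) and 1 lower (7.06%). Between the time points, counted by the level of the lower library, 1 of 16 was higher (2.55% of all genes) and 3 of 17 lower (2.72%). Without the cell of most Hox UMIs in each library 0 of 15 were higher. At time 1, 47 cells with 5 or more Hox UMIs had Meis2 at 59.2 CPM against 4.12 CPM in cells without, beside fibroblast markers at 30.6 against 12.2 CPM.

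In endoderm-like cells HoxA led. The level was 28.3 CPM (21.2 to 37.2) and 39.9 CPM (36.2 to 43.9), at median depths of 28352 and 65777 UMIs, and HoxA gave 55.8% and 56.5% of the Hox UMIs. At time 1 a single cell held 12 of 52 Hox UMIs, and without it the level was 22.5 CPM. A Hox UMI was found in 23.5% and 34.4% of thinned cells, and 16 and 27 of the 39 members reached a UMI in 1% of cells, against 45.3% and 48.5% of all genes. Among 51 cells 1 cell is already past 1%, so that the first count is of members with any UMI. Hoxa7 had 6.54 and 7.54 CPM, Hoxa10 5.45 and 5.53, Hoxc9 2.72 and 3.24, Hoxa11 2.18 and 3.43 and Hoxb4 2.18 and 2.48. The leading genes of the cluster held 6 markers of primitive or parietal endoderm. Fibroblast markers stood at 8.72 and 9.16 CPM, against 7.33 and 7.36 CPM in the pluripotent clusters, and the part of feeder RNA was not tested.

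Endothelial or blood-like cells leaned to HoxB. The level was 18.96 CPM (15.1 to 23.4) and 26.2 CPM (23.3 to 29.4), with 60% and 45.5% of Hox UMIs from HoxB. At time 2 the HoxB share was as large in the Car2-led and 1700097N02Rik-led clusters and nearly as large in the two-cell-like cells. At time 1 a single endothelial or blood-like cell held 17 of 85 Hox UMIs, and without it the level was 15.5 CPM. A Hox UMI was found in 11.7% and 18.7% of thinned cells. Hoxb4, known to act in blood progenitors, had 2.90 CPM (1.54 to 4.96) and 3.77 CPM (2.73 to 5.08), and a UMI in 12.99% and 17.2% of cells. Hoxa7 had 1.12 and 2.81 CPM, Hoxb2 2.23 and 1.14 and Hoxb8 0.892 and 1.84. Fibroblast markers stood at 18.1 and 35.2 CPM, and the part of feeder RNA was not tested.

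In two-cell-like cells, a rare state of ES cultures, the level was 26.8 CPM (23.2 to 30.9) and 20.5 CPM (16.2 to 25.5). At time 1 a single cell held 56 of 191 Hox UMIs, and without it the level was 19.04 CPM. A Hox UMI was found in 14.1% and 10.9% of thinned cells. Hoxb2 had 6.74 and 3.58 CPM, but 1 cell held 39 of its 48 UMIs at time 1. Hoxc13 had 3.23 CPM (2.05 to 4.85) and 3.84 CPM (2.15 to 6.33). Hoxb9 had 1.40 and 2.05 CPM, Hoxd13 1.97 and 1.28 and Hoxb4 1.97 and 0.768. Macrophage-like cells, 56 at time 1 and 2 at time 2, had 23.0 CPM at time 1, with 73.6% of the Hox UMIs in 1 cell and 6.65 CPM without it.

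The pluripotent clusters held few Hox UMIs. A larger share than in the feeders came from positions 11 to 13, most of it from Hoxc13 and Hoxb13. Hoxb9, also 1 of the 2 highest members in fibroblast-like cells, had 0.865 CPM (0.784 to 0.952) and 1.01 CPM (0.953 to 1.07). Hoxc13 had 0.974 and 0.815 CPM, Hoxb13 0.684 and 0.512 and Hoxa7 0.187 and 0.546. Positions 11 to 13 gave 37.8% and 31.6% of the Hox UMIs, against 8.70% and 17.9% in fibroblast-like cells. Hoxc13 and Hoxb13 alone gave 470 and 330 of 2471 Hox UMIs at time 1, and 1016 and 638 of 6862 at time 2. The larger share thus rested on these members and was not a trait of the distal end as a whole. Fibroblast markers stood at 7.33 and 7.36 CPM and Hoxc8, an abundant feeder gene, at 0.0746 and 0.118 CPM, and the part of feeder RNA was not tested. Hoxa6 and Hoxd3 had 0 UMIs in the 8590 pluripotent cells of time 1, which allows a UMI in up to 0.0349% of cells. The pooled class is not compared between times. The Notch2-led cells outside it had 7.60 CPM (7.25 to 7.96) at time 1, at a median depth of 28956 UMIs, and with them the pooled level at time 1 would be 5.93 CPM. The Rhox9-led cluster was led in part by a trophoblast marker and the Nanos3-led one by germ cell markers, and they had 5053 and 597 cells and 1773 and 7156 cells.

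Of the 4 pluripotent clusters the Jam2-led one, with Tbx3 and the germ cell gene Dazl among its leading genes, had the most Hox RNA in both libraries. Its level was 8.80 CPM (8.25 to 9.36) and 10.2 CPM (9.72 to 10.7). The Rhox9-led cluster had 4.48 and 5.42 CPM, the Nanos3-led 2.65 and 3.33 and the 1700097N02Rik-led 6.42 and 5.75. Hoxc13 had 2.16 CPM (1.90 to 2.45) and 2.46 CPM (2.22 to 2.73), with a UMI in 11.1% and 13.1% of cells. Hoxb9 had 1.95 and 2.01 CPM, Hoxb13 0.660 and 0.405 and Hoxa7 0.312 and 0.591. Against the other pluripotent clusters 3 of 6 members were at least 2-fold higher at time 1 (6.43% of all genes) and 7 of 14 at time 2 (8.25%). With the Notch2-led cells added to the others, 4 of 17 were higher (5.81%) and 3 lower (6.58%) at time 1. Hoxc13 was 3.50-fold (2.91 to 4.22) and 4.19-fold (3.68 to 4.77) higher and Hoxb9 3.65-fold (3 to 4.45) and 2.31-fold (2.03 to 2.63). One member in each library was 2-fold lower (5.01% and 4.85% of all genes), Hoxb1 at 0.446 and 0.446 times. The Jam2-led cells were deeper, with medians of 62201 and 58114 UMIs against 50585 and 51186 over all pluripotent cells, and their fibroblast markers stood at 10.6 and 10.7 CPM.

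This Hox RNA was spread thinly. Cells with 5 or more Hox UMIs held 9.63% and 9.62% of the Jam2-led Hox UMIs, beside 47.3% and 64.4% in the mesendoderm-like class. Between the time points 1 of 19 members was at least 2-fold higher in Jam2-led cells (2.07% of all genes) and 0 lower (5.30%). That member was Hoxd11, with 0.0803 and 0.212 CPM and a ratio of 2.65 (1.23 to 6.30), compared only through its time 2 level. Counted by the level of the lower library, 0 of 15 were higher (1.28% of all genes) and 0 of 17 lower (4.25%). The first counts moved with the processing: 3 were higher with edgeR factors, 4 without the filter on low counts and 0 with a pseudocount of 1 CPM, and 1 was lower with doublets kept. Shares of all genes under these settings are not given here either. The median log2 ratio of the members was 0.44 and turned to -0.13 with doublets kept, against -0.09 and -0.09 over all genes.

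Genes that work with the clusters were followed in lists, here in fibroblast-like cells. The PBX and MEIS cofactors included Pbx2 at 21.3 and 19.3 CPM and Meis2 at 21.2 and 17.5. Of the list, counted by the level of the lower library, 0 of 9 were 2-fold higher at time 2 (2.01% of all genes) and 0 of 9 lower (4.21%). Against the pluripotent clusters, 4 of 9 and 4 of 9 were 2-fold higher (16.8% and 17.5% of all genes) and 1 of 9 and 0 of 9 lower (20.9% and 12.3%). The Cdx genes were low, with Cdx1 at 0.259 and 1.69 CPM, Cdx2 at 0.296 and 0.478 and Cdx4 at 0.111 and 0.290. Cdx1 had 0.871 and 4.23 CPM in the pluripotent clusters, and the part of admixed RNA was not tested. Of the retinoic acid genes, 5 of 9 and 5 of 10 were 2-fold above the pluripotent clusters and none below. Crabp1, which binds retinoic acid in the cytoplasm, had 759 and 346 CPM and Crabp2 49.3 and 33.4. Cyp26a1, which degrades retinoic acid, had 225 and 133 CPM in the Lhx1-led cells.

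Median log2 ratios of fibroblast-like over pluripotent cells were 0.07 and 0.64 for the PBX and MEIS list, 1.74 and 1.38 for the retinoic acid list and -0.24 and 0.01 for the neighbours, against -0.21 and -0.17 over all genes counted. Limb position genes and noncoding RNAs of the clusters are given by level, since few were high enough in pluripotent cells to be counted. Prrx1 had 188 and 162 CPM in fibroblast-like and 0.135 and 0.284 CPM in pluripotent cells, Shox2 16.4 and 13.2 and 0.255 and 0.140, and Hand2 4.74 and 7.24 and 0.0415 and 0.0561. Hotairm1, a noncoding RNA of the HoxA cluster, had 25.1 and 11.99 CPM, Hoxa11os 5.40 and 8.06 and Hoxd3os1 3.48 and 1.30. Between the time points 2 of 6 were 2-fold lower (4.21% of all genes), Hotairm1 and Hoxd3os1, but 0 of 6 in cells with few pluripotent markers (3.03%). Of the protein-coding neighbours outside the clusters, 1 of 9 and 1 of 10 were 2-fold above the pluripotent clusters and 2 of 9 and 2 of 10 below, near the shares of all genes given above. Mtx2 had 74.3 and 68.3 CPM in fibroblast-like and 55.6 and 58.8 CPM in pluripotent cells, Hibadh 47.5 and 37.03 and 69.1 and 39.4, and Calcoco2 24.02 and 51.3 and 105 and 129. Evx1, next to Hoxa13, had 10.9 and 15.7 CPM in the Lhx1-led cells and 0.407 and 0.256 CPM in fibroblast-like cells.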

How the data were processed

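The values are raw UMI counts in whole numbers, for each gene in each barcode, as deposited by the authors. Cell Ranger 6.1.2 made them, per the file headers, and bcl2fastq 2.20.0.422 and the builds mm10 and GRCm38 are named in the submitters' processing notes. The matrices hold 145288 and 52242 barcodes with 1735810403 and 1843588321 UMIs. Whether the counting used strand is not given in the sources used here.

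A barcode was kept as a cell with 18315 (time 1) or 18646 (time 2) UMIs or more, which is 0.1 of the 99th percentile over the 20000 largest, with 1000 genes or more and 10% or less of mitochondrial UMIs. Scrublet, at an expected rate of 0.2, then removed 1951 and 1300 doublets (7.58% and 4.60%). Joint clustering used 2000 variable genes outside the sex chromosomes and without Hox genes, 30 components, 15 neighbours and Leiden resolution 0.5 (1 for finer clusters), and gave 14 clusters (scanpy 1.11.5, igraph 0.11.9, Python 3.11.15, numpy 2.4.6, scipy 1.17.1, pandas 2.3.3). The 4 pluripotent clusters were pooled after they were seen. Shares have Clopper-Pearson, sums Poisson and ratios conditional binomial intervals of 95%. The share of cells that a count of 0 allows is 3 divided by the number of cells and is not such an interval. No p-value was computed.

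The members and gene lists were chosen with earlier results of these data known. By rule, the text names the 10 members highest in fibroblast-like cells, the 5 highest in each other class, the 3 most increased and most decreased in fibroblast-like cells and the 3 highest of each list. Some genes that this rule names are not reported here. Further names were chosen after their values were seen. Free RNA was read in barcodes of 500 to 2000 UMIs in place of the planned 10 to 100. Alternatives, among them edgeR 4.0.16 factors in R 4.3.3, changed 1 choice at a time. Filters by the level of the lower library or group were added after the data were seen. The scripts were tested on simulated data.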

Additional observations from a re-analysis of the deposited data

Results flagged for a closer look

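Signal appeared in data that the comparisons do not use. Barcodes of 500 to 2000 UMIs, too small to be kept as cells, had a Hox level of 8.31 CPM (7.80 to 8.84) in the first library and 17.1 CPM (14.8 to 19.6) in the second. Both values lie above the 5.12 and 5.503 CPM of the pluripotent clusters and below the fibroblast-like cells. They lie close to the 9.58 and 20.7 CPM of the mesendoderm-like class, with the higher value at time 2 in both, and at time 2 to the 16.99 CPM of the Car2-led cluster. The part of free RNA in these levels was not tested. The Card19-led cluster, 69 cells of time 1 with a median of 352626 UMIs, had 8.43 CPM (7.32 to 9.66) and was given no name.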

How the results depend on the processing

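No paired analysis of the time points was possible because each had 1 library, and none of the classes within libraries was run. Of the main results, 195 recomputed values stayed within counting error or within 1.5 times the reported count and 91 moved further, given here for time 1 and then time 2. With all UMIs, the shares of cells with any Hox UMI were 88.4% and 89.5% in fibroblast-like, 27.4% and 30.8% in mesendoderm-like, 47.1% and 80.9% in endoderm-like and 19.9% and 22.5% in pluripotent cells. At 5000 UMIs per cell they were 50.9% and 44.5%, 4.14% and 7.58%, 9.80% and 19.1% and 2.74% and 2.50%. Members at 1% of cells after thinning to 10000 UMIs numbered 1 and 5 in mesendoderm-like, 10 and 14 in endoderm-like and 0 and 0 in pluripotent cells. At 5000 UMIs they numbered 23 and 23 in fibroblast-like cells and 0 and 2, 5 and 4 and 0 and 0 in the others. At 5% of cells the last 3 classes had 1 and 2, 4 and 16 and 0 and 1. Thinning and a higher limit lower the detection of any gene. The shares of all genes at these settings are not given here, so these counts are not results about the members.

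With Hox genes allowed in the clustering, the fibroblast-like share and level at time 1 were 58.6% and 208 CPM, the mesendoderm-like share at time 1 was 11.3% and its level 24.4 and 17.7 CPM, so that its order between libraries turned. At resolution 1 the levels were 225 CPM (fibroblast-like, time 1), 19.7 CPM (mesendoderm-like, time 1) and 4.92 and 5.33 CPM (pluripotent), with a mesendoderm-like share of 9.05% at time 2. With doublets kept, levels at time 1 were 230.2, 15.5 and 5.45 CPM in these classes, and the mesendoderm-like share 5.35%. With Notch2-led cells added to the pluripotent pool, also chosen after seeing the data, its time 1 share was 5.73%, its level 5.93 CPM and its HoxC, HoxD and position 11 to 13 parts 25.7%, 11.7% and 30.9%. Leaving out the cell of most Hox UMIs, also chosen after seeing the data, gave 8.50 and 18.5 CPM in mesendoderm-like cells. At most 5% of mitochondrial UMIs gave 233 CPM in fibroblast-like cells at time 1.

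Fibroblast-like cells with few pluripotent markers, a choice made after seeing the data, gave shares of 83.8% and 75.7% and levels of 335 and 297 CPM. Their HoxB share was 34.0% and 21.2% and their HoxD share 14.6% and 19.4%, with HoxA at 25.02% and HoxC at 34.4% at time 2. Positions 11 to 13 gave 10.3% and 19.02% and were the most posterior in 35.8% and 53.9% of these cells. In all fibroblast-like cells they were so in 13.4% and 29.4% at 2 UMIs or more and 12.7% and 22.1% after thinning. Hoxb8 and Hoxd11 were together in 0 and 0 of the cells with few pluripotent markers and in 0 and 1 of all thinned cells.

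Of the members, 0 were 2-fold higher and 1 lower at time 2 in fibroblast-like cells with a pseudocount of 1 CPM, 4 were higher without the filter on low counts, 1 was lower with Hox genes in the clustering and 0 were higher in cells with few pluripotent markers. Counted by the level of the lower library, 1 was higher in fibroblast-like and 0 in Jam2-led cells. In Jam2-led cells 3 were higher with edgeR factors, 0 with the pseudocount and 4 without the filter, and 1 was lower with doublets kept. Without the shares of all genes under these altered settings, such counts are not results about the members. The edgeR factors moved the median log2 ratio of all genes in fibroblast-like cells from -0.08 to 0.04 and that of the members from -0.29 to -0.17. The cause of these shifts was not tested. In the 51 endoderm-like cells of time 1 a count of 0 allows a UMI in up to 5.88% of cells.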
